A study of Mus musculus with 20 samples.

Results

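The integrated stress response and its ATF4 targets were followed as a set of 10 genes (Atf4, Atf3, Ddit3, Chac1, Trib3, Asns, Ppp1r15a, Sesn2, Psat1 and Phgdh), taken as the genes whose RefSeq accessions are carried by the array probes. The 10 genes were represented by 13 of 39429 probes, and all 10 were among the 18756 genes kept for testing. Every one of the 13 probes lay well above background on all 20 arrays. RNA came from a murine B16 line expressing the oncogenic kinase fusion Bcr-Abl, and each of the 20 samples was hybridised in 1 colour to its own array. B16 is a mouse melanoma line, whereas the strain label of every sample reads C3H eOuJ. The cells carried a void plasmid (3 arrays) or a plasmid for the NF-κB subunit p65/RelA, and all groups shared the Bcr-Abl+ background. The p65 forms were wild type (WT, 3 arrays), the non-cleavable mutant D361E (3 arrays), the fragment of residues 1-361 (N-fragment, 3 arrays), the fragment of residues 362-549 (C-fragment, 3 arrays), and both fragments together (N+C, 5 arrays). The promoter of the plasmids, the time after transfection and the number of clones or cultures behind each group are not given in the sources used here. The p-values therefore measure the spread between these samples, which may be technical.

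In the integrated stress response, kinases that sense amino acid shortage, misfolded protein, haem shortage or double-stranded RNA phosphorylate the translation factor eIF2, which lowers general protein synthesis while raising translation of the mRNA for ATF4. ATF4 is a transcription factor that binds, with C/EBP-family and other bZIP partners, to C/EBP-ATF response elements of genes for amino acid synthesis and uptake, redox balance and feedback. Since ATF4 is controlled largely through translation, the mRNA levels measured here are not a measure of ATF4 protein or of eIF2 phosphorylation.

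Promoter sequences are shown for the 4 members whose window held the core of the C/EBP-ATF response element, because the members with the largest differences between groups (Chac1, Trib3 and Atf3) are among them. The windows were taken from RefSeq (GRCm38.p6) and run from 250 bases before to 50 bases after the annotated start, and all 10 members matched an entry. The core was searched as TGATGNAA on both strands, and matches are in capitals. Atf3 lies on the minus strand (window chr1:191183284-191183583), Chac1 on the plus strand (chr2:119350992-119351291), Trib3 on the minus strand (chr2:152344011-152344310) and Asns on the minus strand (chr6:7693160-7693459). Each sequence is written 5′ to 3′ in the direction of the gene.
Atf3: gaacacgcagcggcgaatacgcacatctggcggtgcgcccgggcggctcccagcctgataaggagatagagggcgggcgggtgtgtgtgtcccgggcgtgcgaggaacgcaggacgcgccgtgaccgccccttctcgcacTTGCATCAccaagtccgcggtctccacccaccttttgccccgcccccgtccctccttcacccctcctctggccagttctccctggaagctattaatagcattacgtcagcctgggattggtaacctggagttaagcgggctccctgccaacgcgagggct
Chac1: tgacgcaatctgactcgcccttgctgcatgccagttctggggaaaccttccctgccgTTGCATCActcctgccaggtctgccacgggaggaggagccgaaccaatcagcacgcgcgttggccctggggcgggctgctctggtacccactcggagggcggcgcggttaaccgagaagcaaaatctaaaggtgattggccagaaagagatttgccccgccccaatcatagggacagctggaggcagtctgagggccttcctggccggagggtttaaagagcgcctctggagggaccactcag
Trib3: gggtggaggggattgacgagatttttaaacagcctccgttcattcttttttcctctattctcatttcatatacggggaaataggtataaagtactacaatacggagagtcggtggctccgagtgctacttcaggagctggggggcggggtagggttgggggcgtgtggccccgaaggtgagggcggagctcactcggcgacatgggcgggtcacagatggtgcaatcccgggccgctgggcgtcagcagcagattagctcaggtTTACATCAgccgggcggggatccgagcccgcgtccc
Asns: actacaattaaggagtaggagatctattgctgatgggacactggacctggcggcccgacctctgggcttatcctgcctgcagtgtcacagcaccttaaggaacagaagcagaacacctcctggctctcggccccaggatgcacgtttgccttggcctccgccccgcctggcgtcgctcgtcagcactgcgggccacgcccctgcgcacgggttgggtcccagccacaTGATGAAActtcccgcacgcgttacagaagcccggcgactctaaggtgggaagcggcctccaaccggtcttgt
With the first transcribed base counted as 0, the match lay at -110 to -103 in Atf3 and at -193 to -186 in Chac1, both as TTGCATCA on the strand shown. It lay at 14 to 21 in Trib3, within the transcribed part, as TTACATCA. In Asns it lay at -23 to -16 as TGATGAAA. The same core was found in 1304 of 32851 promoter windows of this length, or 3.97%. The 6 other members had no match in their windows. Among them was Sesn2, whose group means spanned 1.04 log2, whereas those of Asns, with a match, spanned 0.59. A link between a match and the size of the differences was not tested. An NF-κB consensus was found in 0 of the 11 windows of the members (Psat1 has an alternative start) and in 4.51% of all windows. With so few windows, 0 does not stand clear of that share. These matches describe letters in the windows and are not measured binding sites.

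The depth of the arrays was similar, with 51.1% to 57.9% of 43020 non-control spots well above background and 0 saturated spots. All 9 melanocyte markers, among them Mitf, Tyr and Pmel, were above background on all 20 arrays. Markers of other cell types were mixed. The leukocyte marker Ptprc, the B-cell marker Cd79a, the macrophage marker Adgre1, the fibroblast markers Pdgfrb, Dcn and Lum, the epithelial Krt8 and the endothelial Cdh5 were above background on none. Others from the same lists were above background on all 20 arrays, namely Cd3e and Vpreb1 (lymphoid), Csf1r and Itgam (macrophage), Col1a2 (fibroblast), and Pecam1 and Kdr (endothelial). Col1a1 and Pdgfra were above it on 18. Their part in the results was not tested. Rela itself rose by 0.36 ± 0.07 log2 (SE) in N-fragment cells against void (adjusted p = 0.000892, limma), and its difference was between 0.07 and 0.18 log2 in the 4 other groups, none of which passed the test. Its probe reads endogenous and plasmid transcripts only as far as they contain the probed stretch, so it is a limited check of the labels. In these RNA samples from whole cultures, a change in the share of responding cells and a change in RNA per cell cannot be told apart.

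All levels below are log2 intensities relative to the 75th percentile of the same array, so that a difference of 1 is a doubling. Levels belong to single probes and are compared only between arrays, not between genes. For each gene the arrays are given in replicate order.

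Of the 3 transcription factors, Atf4, the central activator of the response, was at 6.77, 6.64 and 6.54 on the void arrays. Its levels were 7.34, 7.16 and 7.11 with WT p65. The 3 WT arrays lay above all 17 other arrays, the highest of which was an N+C array at 6.99. The D361E (6.81 to 6.89), N-fragment (6.71 to 6.82), C-fragment (6.79 to 6.88) and N+C (6.49 to 6.99) arrays stood close together, and only D361E and C-fragment cleared the void range. A second, dimmer probe for Atf4 gave the same WT difference from void, 0.56 log2. On that probe the C-fragment was only 0.009 log2 above void (adjusted p = 0.978, limma). It was 0.55 log2 below WT there (adjusted p = 0.0324), a difference that was not called on the first probe (0.0631).

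Atf3, a stress-induced bZIP factor that is itself a target of ATF4, showed another order. Its levels were -1.68, -1.62 and -1.48 on the void arrays. They were -3.08, -2.45 and -2.55 with D361E. They were -2.91, -2.88 and -3.28 with the C-fragment. These 6 arrays lay below the other 14, and D361E and the C-fragment overlapped each other. WT (-1.75 to -1.57), N-fragment (-1.79 to -1.71) and N+C (-1.53 to -1.49) arrays all stayed near the void level.

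Ddit3, which encodes CHOP, a factor linked to cell death under prolonged stress, was at 0.81, 0.98 and 1.10 on the void arrays. With D361E it was at 0.34, 0.69 and 0.53. The D361E arrays were the lowest 3 of the 20. The void, WT (0.85 to 1.18) and N+C (0.91 to 1.32) ranges overlapped, whereas the N-fragment (1.11 to 1.21) and C-fragment (0.78 to 0.90) ranges did not overlap each other.

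Chac1 and Trib3 showed the widest spread between groups. Chac1 encodes a glutathione-degrading enzyme and is a late target of ATF4. Its void arrays were at 1.52, 1.47 and 1.48. The WT arrays were at 3.42, 3.24 and 3.03. The N-fragment arrays were at 0.80, 0.81 and 0.70. The N+C arrays were at 0.90, 1.17, 1.12, 1.82 and 1.86. In descending order WT came first, then D361E (2.02 to 2.56) and C-fragment (1.94 to 2.26), which overlapped, then void and N+C, which also overlapped, and last the N-fragment, whose 3 arrays were the lowest of the 20.

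Trib3 encodes a pseudokinase that binds ATF4 and the kinase AKT and restrains ATF4 activity. It was at 2.06, 1.64 and 1.66 on the void arrays. The WT arrays were at 3.75, 3.50 and 3.30. The N-fragment arrays were at 1.05, 1.23 and 1.24. The order was again WT at the top and the N-fragment at the bottom, with no overlap of either with any other group. D361E (2.41 to 2.66) and C-fragment (2.38 to 2.76) overlapped and lay above void, while N+C (1.73 to 2.41) overlapped the void range and reached the lowest C-fragment array.

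**Figure D1:**
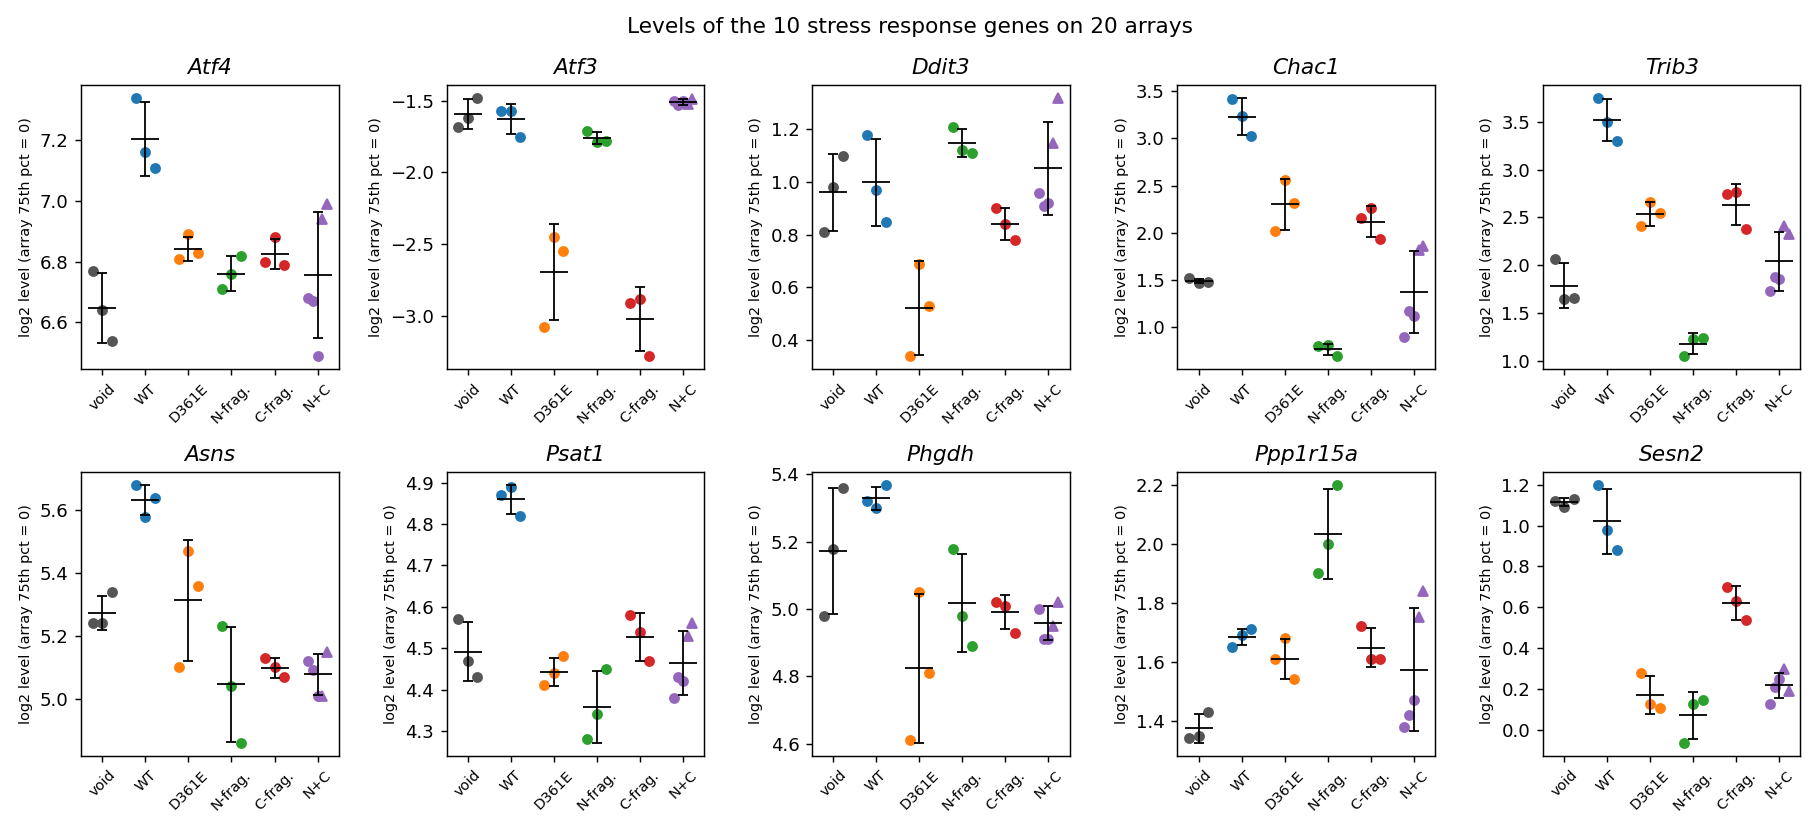
Log2 level relative to the array's 75th percentile (vertical axis, a separate scale for each gene) in the 6 groups (horizontal axis), with 1 point per array, the group mean as a line and ±1 SD as bars. Triangles are N+C arrays 4 and 5. Chac1 and Trib3 are highest on the 3 WT arrays and lowest on the 3 N-fragment arrays, Atf3 is lowest with D361E and the C-fragment, and Sesn2 is low in every group but void, WT and, in part, the C-fragment.

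The 3 enzymes of amino acid synthesis moved over a narrower range. Asns, asparagine synthetase, was at 5.24, 5.24 and 5.34 with void and at 5.68, 5.58 and 5.64 with WT. The WT arrays lay above all others, the next being a D361E array at 5.47. Psat1, which makes phosphoserine in serine synthesis, was at 4.57, 4.47 and 4.43 with void and at 4.87, 4.89 and 4.82 with WT. Again the WT arrays were the highest 3, and the 5 other groups (4.28 to 4.58 over all their arrays) overlapped the void range. Phgdh, the first enzyme of serine synthesis, was at 4.98, 5.18 and 5.36 with void, and 2 of the 3 WT arrays (5.32, 5.30 and 5.37) lay within this range. The D361E arrays were at 4.61, 5.05 and 4.81, which include the lowest 2 of the 20, and they overlapped the void arrays. Second probes for Psat1 and Phgdh were not called in any comparison, with Psat1 at 0.32 log2 for WT against void (adjusted p = 0.322, limma) and Phgdh at -0.41 for D361E against void (0.144).

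Ppp1r15a encodes GADD34, the phosphatase subunit that restores eIF2 by removing its phosphate. It was at 1.34, 1.35 and 1.43 on the void arrays. With the N-fragment it was at 1.90, 2.00 and 2.20. The N-fragment arrays were the highest of the 20, and the void arrays lay below all WT (1.65 to 1.71), D361E (1.54 to 1.68) and C-fragment (1.61 to 1.72) arrays.

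Sesn2, a stress-induced inhibitor of mTORC1 that also senses leucine and is a target of both ATF4 and p53, was at 1.12, 1.09 and 1.13 with void. The WT arrays, at 1.20, 0.98 and 0.88, overlapped them. The C-fragment arrays were lower, at 0.70, 0.63 and 0.54. The D361E arrays were at 0.28, 0.13 and 0.11. The N-fragment arrays were at -0.06, 0.13 and 0.15. The N+C arrays were at 0.13, 0.21, 0.25, 0.30 and 0.19. The C-fragment thus stood between void and WT above and the 3 other p65 forms below, which overlapped each other.

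The comparison of WT p65 with void asks which members differ when the wild-type protein is added. Chac1 and Trib3 rose most, by 1.74 ± 0.22 log2 (SE; 3.34-fold) and 1.73 ± 0.18 log2 (3.32-fold). Atf4 rose by 0.56 ± 0.11, Psat1 by 0.37 ± 0.06 and Asns by 0.36 ± 0.09 log2. The remaining 5 members did not pass the test, with Ppp1r15a at 0.31, Phgdh at 0.16, Ddit3 at 0.04, Atf3 at -0.04 and Sesn2 at -0.09 log2. Adjusted p-values (limma, over all 18756 genes) were 9.22e-05 for Chac1, 1.91e-05 for Trib3, 0.00425 for Atf4, 0.00153 for Psat1 and 0.0222 for Asns. Thus 5 of 10 members were called higher and 0 lower, where 3.22% of all genes were called higher and 6.16% lower. The median difference was 0.34 log2 over the members and -0.03 over all genes. Atf4 missed the threshold with normexp background correction (adjusted p = 0.0915), and Asns missed it with no filter on dim probes and in 5 of the 6 fits that left out 1 array (void replicate 1 or 2, or any WT replicate). Without scaling between arrays the median of all genes moved to 0.37 log2, and 7426 of 18756 genes were called higher. In that setting 9 members were called higher, with Asns at 0.76, Psat1 at 0.77 and Atf4 at 0.96 log2.

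D361E against void gave a split within the set. Chac1 rose by 0.81 ± 0.22 log2 (adjusted p = 0.0192) and Trib3 by 0.75 ± 0.18 (0.0109). Atf3 fell by 1.10 ± 0.13 log2 (adjusted p = 3.42e-05) and Sesn2 by 0.94 ± 0.08 (1.15e-06). Ddit3 fell by 0.44 ± 0.12 (adjusted p = 0.0211) and Phgdh by 0.35 ± 0.11 (0.0369). So 2 of 10 members were called higher and 4 lower, against 6.04% of all genes higher and 7.45% lower, and the medians were 0.00 log2 over the members and -0.04 over all genes. Of the 6 fits that left out 1 array, Ddit3, Chac1 and Phgdh were each called in 2, and without void replicate 2 only 2 members were called, with Trib3 at an adjusted p of 0.0513. The fit without void replicate 2 called 843 of all 18756 genes higher and 1008 lower. Phgdh was also lost in 6 of 9 other settings, and the Atf3 difference was -0.58 log2 with normexp background correction.

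With the N-fragment, Sesn2 fell by 1.04 ± 0.08 log2 against void (adjusted p = 9.54e-08). Chac1 fell by 0.72 ± 0.22 (adjusted p = 0.0171) and Trib3 by 0.61 ± 0.18 (0.0171). Ppp1r15a rose by 0.66 ± 0.11 log2 (adjusted p = 0.000229). Atf4 (0.11), Ddit3 (0.19), Atf3 (-0.17), Asns (-0.23), Psat1 (-0.13) and Phgdh (-0.16 log2) did not pass. This is 1 of 10 members higher and 3 lower, beside 13.2% of all genes higher and 17.9% lower, with medians of -0.16 over the members and -0.06 over all genes. With counts this small, neither share stands clear of that of all genes. The Chac1 and Trib3 differences shrank to -0.39 and -0.28 log2 without scaling between arrays and were then not called, and Chac1 was also lost without N-fragment replicate 3 and Trib3 without void replicate 1 or N-fragment replicate 1.

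With the C-fragment, Atf3 fell by 1.43 ± 0.13 log2 (adjusted p = 5.11e-06) and Sesn2 by 0.49 ± 0.08 (0.00102). Trib3 rose by 0.85 ± 0.18 log2 (adjusted p = 0.00596). Chac1 was at 0.63 ± 0.22 log2 above void and missed the threshold (adjusted p = 0.0676), although its 3 arrays did not overlap the void arrays. The counts were 1 of 10 higher and 2 lower, against 4.88% and 8.25% of all genes, and both medians were near 0 (-0.04 over the members, -0.02 over all genes). The Atf3 difference was -0.65 log2 with normexp background correction. Sesn2 was not called with that correction or without scaling, where it fell to -0.26 log2.

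With both fragments, Sesn2 fell by 0.90 ± 0.07 log2 against void (adjusted p = 3.45e-07), and no other member passed the test. The counts were 0 of 10 higher and 1 lower, beside 11.8% and 12.8% of all genes, and the medians were 0.03 over the members and -0.03 over all genes. The void arrays are shared by these 5 comparisons, so their results are not independent of one another.

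**Figure D2:**
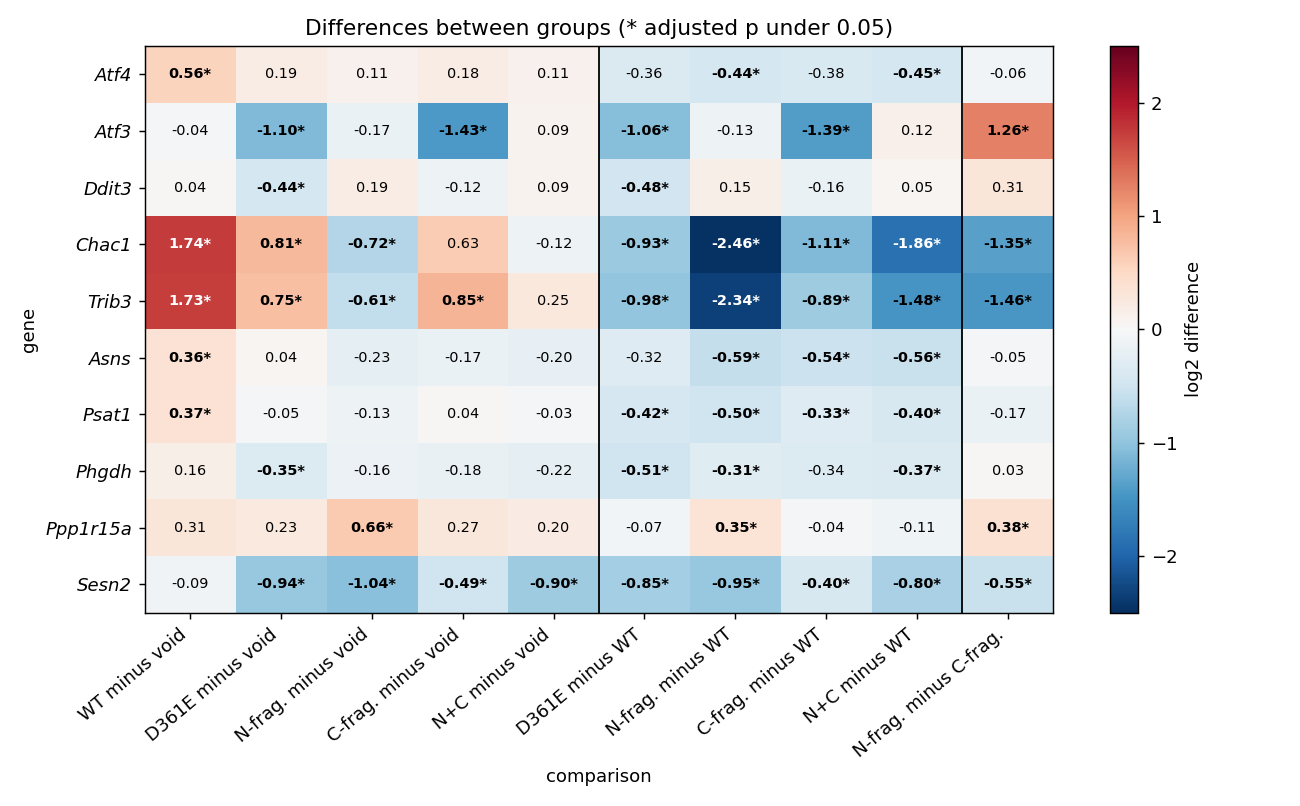
Log2 difference of each gene (rows) in each of 10 comparisons (columns), in colour and as a number, with an asterisk and bold type where limma's adjusted p was under 0.05. Lines separate the comparisons that share the void arrays, those that share the WT arrays, and the N-fragment against the C-fragment. Chac1 and Trib3 are positive in WT and D361E and negative in the N-fragment column against void, and Sesn2 is negative with a call in 9 of the 10 columns.

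The mean over the 5 N+C arrays hid a split between them. Arrays 1, 2 and 3 differed from each other by a median absolute difference of 0.089 to 0.103 log2 over 14798 genes, arrays 4 and 5 by 0.101, and arrays of the first set from those of the second by 0.208 to 0.283. Within the other groups that distance ranged from 0.0634 to 0.222, the highest being in D361E (0.222) and void (0.218), so the distance between the sets overlapped the widest spread inside those groups. The labels give both sets the same description. Arrays 1 and 4, from different sets, shared slide 5, and the other 3 lay on slides 2, 3 and 4. Chac1 averaged 1.06 on arrays 1 to 3 and 1.84 on arrays 4 and 5. Trib3 averaged 1.82 and 2.37, Ppp1r15a 1.42 and 1.80, Atf4 6.62 and 6.97, Ddit3 0.93 and 1.23, and Psat1 4.41 and 4.55. For these 6 genes both arrays of the second set lay above all 3 of the first. Atf3, Asns, Sesn2 and Phgdh overlapped between the sets, with differences of 0.00 to 0.05 log2.

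Fitted separately against void, a choice made after the split was seen, arrays 1 to 3 gave lower Chac1 (-0.43 log2, adjusted p = 0.0213, limma). Arrays 4 and 5 gave Chac1 at 0.35 (adjusted p = 0.0935). The second set had Trib3 higher by 0.58 (adjusted p = 0.0166), Ppp1r15a by 0.42 (0.00159) and Atf4 by 0.32 (0.00893). Sesn2 was lower in both, at -0.92 and -0.87 log2. Of the 10 members 2 were called with the first set alone and 4 with the second. Over all genes, 2926 of 18756 were called higher and 3392 lower with the first set, and 2621 and 2679 of 18755 with the second. With counts this small, neither stands clear of the calls over all genes. The calls for Chac1, Trib3, Ppp1r15a and Atf4 against void thus rest on which arrays are used, and that for Sesn2 does not. What separates the sets was not tested.

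**Figure D3:**
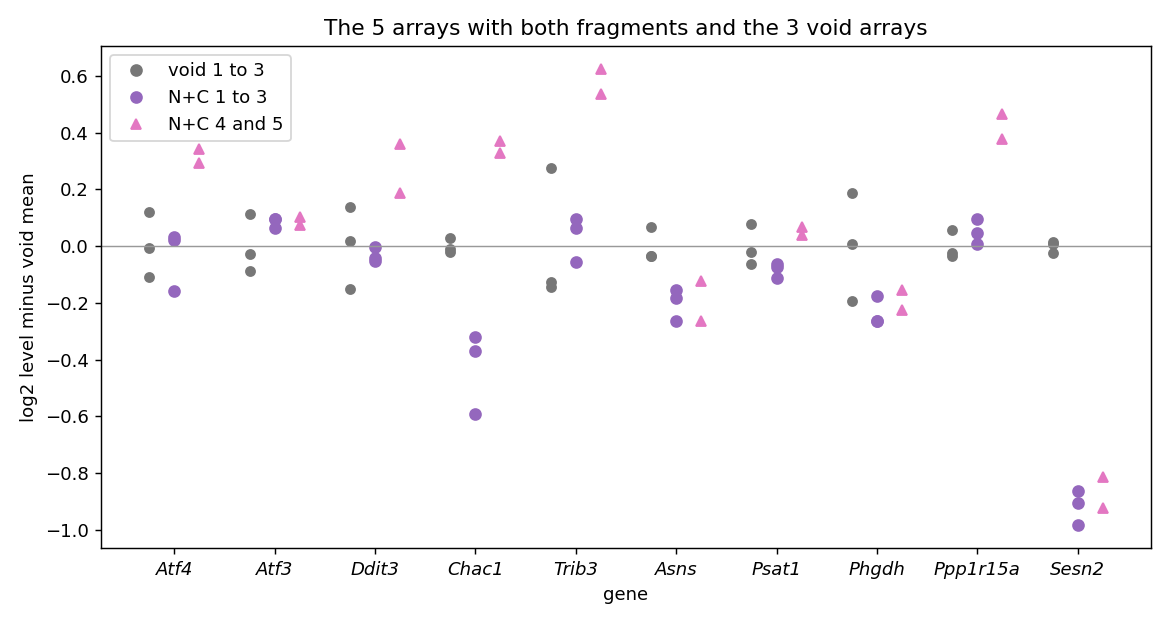
Log2 level minus the void mean (vertical axis) for the 10 genes (horizontal axis), with 1 point per array: void arrays in grey, N+C arrays 1 to 3 as purple circles and N+C arrays 4 and 5 as pink triangles. Chac1 lies below void on arrays 1 to 3 and above it on arrays 4 and 5, and Sesn2 lies below void on all 5.

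Against WT p65, the question was how the mutant and the fragments differ from the wild-type protein. D361E gave 7 of 10 members lower and 0 higher, where 1.77% of all genes were lower and 2.4% higher. The largest falls were Atf3 by 1.06 ± 0.13 log2 (adjusted p = 0.000127), Trib3 by 0.98 ± 0.18 (0.00405), Chac1 by 0.93 ± 0.22 (0.0207) and Sesn2 by 0.85 ± 0.08 (1.12e-05). Phgdh fell by 0.51 (adjusted p = 0.00993), Ddit3 by 0.48 (0.0316) and Psat1 by 0.42 (0.000669). The medians were -0.49 log2 over the members and 0.01 over all genes, and all 10 members were below 0. Atf4 at -0.36 (adjusted p = 0.0808) and Asns at -0.32 (0.0685) did not pass, although their arrays did not overlap. The count dropped to 4 without D361E replicate 1 and to 4 when only these groups were fitted. Of all 18756 genes, 403 were higher and 232 lower in the first of these fits, and 453 and 323 in the second. Ddit3 and Chac1 each kept the call in 2 of the 6 fits that left out 1 array, and they were lost without WT replicate 1 or 2 and without D361E replicate 1 or 3.

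The N-fragment gave the most calls against WT, 8, and the largest Chac1 and Trib3 differences. Chac1 fell by 2.46 ± 0.22 log2 (adjusted p = 3.52e-07) and Trib3 by 2.34 ± 0.18 (9.21e-08). Sesn2 fell by 0.95 ± 0.08 (adjusted p = 3.07e-07), Asns by 0.59 ± 0.09 (0.000166), Psat1 by 0.50 ± 0.06 (1.57e-05), Atf4 by 0.44 ± 0.11 (0.00576) and Phgdh by 0.31 ± 0.11 (0.0383). Ppp1r15a was the 1 member that rose, by 0.35 ± 0.11 log2 (adjusted p = 0.0249). In all, 7 of 10 were lower and 1 higher, beside 13.5% and 13.8% of all genes, with medians of -0.47 over the members and -0.03 over all genes. The Ppp1r15a and Phgdh calls were lost in 4 and 5 of the 6 fits that left out 1 array. Ppp1r15a was also lost with slide as a block, without scaling and with no filter on dim probes. Phgdh was also lost with normexp background correction, with no filter, with the mean of its probes and when only these groups were fitted. Atf4 was not called with normexp background correction (adjusted p = 0.0791).

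The C-fragment was lower than WT in 6 of 10 members and higher in 0, where 2.35% of all genes were lower and 2.08% higher. Atf3 fell by 1.39 ± 0.13 log2 (adjusted p = 1.02e-05), Chac1 by 1.11 ± 0.22 (0.00671), Trib3 by 0.89 ± 0.18 (0.00982), Asns by 0.54 ± 0.09 (0.00318), Sesn2 by 0.40 ± 0.08 (0.0101) and Psat1 by 0.33 ± 0.06 (0.00563). The medians were -0.39 over the members and 0.01 over all genes. Trib3 and Sesn2 were each lost without WT replicate 1 and without C-fragment replicate 3, and Sesn2 also with normexp background correction and when only these groups were fitted.

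With both fragments, 7 of 10 members were lower than with WT and 0 higher, against 9.67% and 13.6% of all genes, and the medians were -0.42 and 0.00 log2. Chac1 fell by 1.86 ± 0.19 log2 (adjusted p = 3.94e-06) and Trib3 by 1.48 ± 0.16 (7.22e-06). Sesn2 fell by 0.80 ± 0.07, Asns by 0.56 ± 0.08, Atf4 by 0.45 ± 0.10, Psat1 by 0.40 ± 0.06 and Phgdh by 0.37 ± 0.09 log2, with adjusted p-values of 1.08e-06 to 0.00926. With arrays 1 to 3 alone 8 members were called lower, and with arrays 4 and 5 alone 6. Over all genes, 2805 of 18756 were lower with arrays 1 to 3, and 2109 of 18755 with arrays 4 and 5. Phgdh was not called with arrays 4 and 5 alone or with the mean of its probes, and Atf4 was not called with normexp background correction or when only these groups were fitted. The WT arrays are shared by these 4 comparisons and also enter the one of WT with void.

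The fragments were also compared with each other, in groups that share no arrays with void or WT. The arrays of both fragments also enter the comparisons with void and WT above, so these results are not independent of those. The N-fragment had higher Atf3, by 1.26 ± 0.13 log2 (adjusted p = 3.3e-06), and higher Ppp1r15a, by 0.38 ± 0.11 (0.0189). It had lower Trib3 (-1.46 ± 0.18 log2, adjusted p = 2.24e-05), Chac1 (-1.35 ± 0.22, 0.000251) and Sesn2 (-0.55 ± 0.08, 0.000129). This made 2 of 10 members higher and 3 lower, beside 9.98% and 10.1% of all genes, with medians of -0.06 and -0.04 log2. Atf4, Asns and Phgdh differed by 0.06 log2 or less in either direction. Ppp1r15a was not called with slide as a block, without C-fragment replicate 2 or 3, or without N-fragment replicate 3, and the Atf3 difference was 0.66 log2 with normexp background correction.

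The 20 arrays lay on 5 slides of 4 arrays each, and no group lay on 1 slide only. For every one of the 52 member differences called in the 10 comparisons, the difference within each slide that held both groups had the same sign as the overall one, which made 92 values in all. Where the arrays of the compared groups do not overlap, this sign is fixed in advance. Among the called differences only Phgdh for D361E against void had overlapping arrays, so the agreement says little about the slides.

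Genes around the members were taken as 4 lists, of which 51 of 54 genes were kept for testing. Stc2, Gdf15 and Fgf21 were not kept. The counts of these lists against void are to be read beside the shares of all genes called higher and lower, which were 3.22% and 6.16% for WT, 6.04% and 7.45% for D361E, 13.2% and 17.9% for the N-fragment, 4.88% and 8.25% for the C-fragment, and 11.8% and 12.8% for N+C. Of 13 enzymes for amino acids and one-carbon units, 7 rose with WT p65 and 0 fell, with a median of 0.36 log2. Mthfd2, the mitochondrial one-carbon enzyme, led with 0.87 ± 0.09 log2 (adjusted p = 1.12e-05). With D361E 5 of the 13 rose and 0 fell. The largest rise there was that of Ass1, argininosuccinate synthase, at 1.20 ± 0.22 log2 (adjusted p = 0.00145), which also rose with N+C, by 1.15 ± 0.19 (0.000438). With the N-fragment 2 rose and 3 fell, led by the folate enzyme Aldh1l2 (1.17 log2, adjusted p = 5.24e-06) and the serine enzyme Psph (-0.64, 0.00015). With the C-fragment 2 rose and 0 fell. With N+C 3 rose and 2 fell. The N-fragment counts were close to the shares of all genes. Against WT, 2 of the 13 were higher and 4 lower with D361E, beside 2.4% and 1.77% of all genes. With N+C 2 were higher and 6 lower than with WT, beside 13.6% and 9.67%. The largest of these rises were Cbs with D361E (1.65 ± 0.24 log2, adjusted p = 0.000596, limma) and Ass1 with N+C (1.46 ± 0.19, 5.01e-05).

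Of the 10 amino acid transporters, 2 rose with WT, 3 with D361E and 1 with the C-fragment, and 0 fell in these 3 groups. With the N-fragment 2 rose and 2 fell, and with N+C 1 rose and 1 fell, both near the shares of all genes. Slc7a5, the large neutral amino acid transporter LAT1, rose by 0.71 ± 0.08 log2 with WT (adjusted p = 3.22e-05), by 0.95 ± 0.08 with the N-fragment (1.86e-07), by 0.66 ± 0.08 with the C-fragment (6.03e-05) and by 0.63 ± 0.07 with N+C (9.39e-06). In D361E cells it rose by 0.59 ± 0.08 (adjusted p = 0.000105, a value added after it was seen), and its partner chain Slc3a2 rose about as much, by 0.59 ± 0.17 log2 (0.0286). Against WT the glycine transporter Slc6a9 had the largest called fall of the list in all 4 groups, from -0.83 log2 with the N-fragment to -0.34 with D361E. The arginine transporter Slc7a3 was higher with the N-fragment than with WT (adjusted p = 0.0421), but it was above background on only 1 of 3 WT arrays.

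Of 13 other genes linked to ATF4, 6 rose and 1 fell with WT, with a median of 0.40 log2. Nupr1, a stress-induced chromatin protein, rose by 1.83 ± 0.45 log2 (adjusted p = 0.0172), and its WT arrays (0.94 to 1.40) lay above all other arrays. Ddit4, an inhibitor of mTORC1 induced by stress and hypoxia, went the other way. It was at 3.66 to 3.69 with void and at 2.13 to 2.42 with WT, 1.70 to 1.84 in C-fragment cells, 1.07 to 1.49 in D361E cells, 1.12 to 1.30 in N-fragment cells and 1.21 to 1.30 in N+C cells, with no overlap of any p65 form with void. The differences from void were -1.41 ± 0.09 log2 for WT (adjusted p = 1.18e-07), -1.90 ± 0.09 for the C-fragment (2.53e-09), -2.41 ± 0.09 for D361E (1.04e-10), -2.43 ± 0.08 for N+C (2.1e-11) and -2.46 ± 0.09 for the N-fragment (2.06e-11), the last added after its value was seen. With D361E 3 of the 13 rose and 2 fell, beside 6.04% and 7.45% of all genes, with a median of -0.0048 log2. With the C-fragment 0 rose and 1 fell, beside 4.88% and 8.25%, with a median of -0.028 log2. With the N-fragment 4 of the 13 rose and 6 fell, beside 13.2% and 17.9% of all genes, and with N+C 4 rose and 6 fell, beside 11.8% and 12.8%. Cebpb, a bZIP partner of ATF4, led the rises in both, by 0.85 ± 0.12 and 1.05 ± 0.10 log2 (adjusted p = 3.52e-05 and 2.54e-06). Against WT, Sqstm1 had the largest called rise of this list with D361E (0.67 log2), the N-fragment (0.58) and N+C (0.65). In these groups 1, 2 and 3 of the 13 were higher than with WT, and 6, 8 and 8 were lower. The shares of all genes higher and lower were 2.4% and 1.77%, 13.8% and 13.5%, and 13.6% and 9.67%. Vldlr, a lipoprotein receptor, was not well above background on any N-fragment or N+C array, and it was at least 4.38-fold lower with the N-fragment than with void (adjusted p = 9.8e-05) and at least 11.7-fold lower than with WT (1.91e-06). That bound sets the mean of the brighter group against the lowest signal counted as above background on each dim array, or the probe's own signal where that was higher.

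The kinases and machinery of eIF2 changed little with WT, where 1 of 15 rose and 0 fell. The gene that rose was Eif2ak3, which encodes the endoplasmic reticulum kinase PERK, by 0.45 ± 0.07 log2 (adjusted p = 0.00125). It rose by 0.57 ± 0.07 with D361E (adjusted p = 7.47e-05), and it was lower than with WT in the 3 groups with fragments, by 0.57 ± 0.07, 0.60 ± 0.07 and 0.69 ± 0.07 log2 for the N-fragment, the C-fragment and N+C. Eif2s1, the subunit of eIF2 that is phosphorylated, rose with the N-fragment by 0.60 ± 0.06 log2 against void (adjusted p = 1.96e-06). In all, 2 of 15 rose and 0 fell with D361E, 3 rose and 2 fell with the N-fragment, and 0 were called with the C-fragment. With N+C 1 rose and 4 fell (Eif2ak2, Eif2ak3, Eif2ak4 and Dnajc3, of which only Eif2ak2 was named by the rule and the others after their values were seen), the largest fall being that of Eif2ak2, which encodes the double-stranded RNA kinase PKR, at -0.55 ± 0.10 log2 (adjusted p = 0.000928).

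Over the 51 list genes together, 16 rose and 1 fell with WT, 13 and 2 with D361E, 11 and 13 with the N-fragment, 3 and 1 with the C-fragment, and 9 and 13 with N+C. In the same order, the shares of all genes called higher and lower were 3.22% and 6.16%, 6.04% and 7.45%, 13.2% and 17.9%, 4.88% and 8.25%, and 11.8% and 12.8%.

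**Figure D4:**
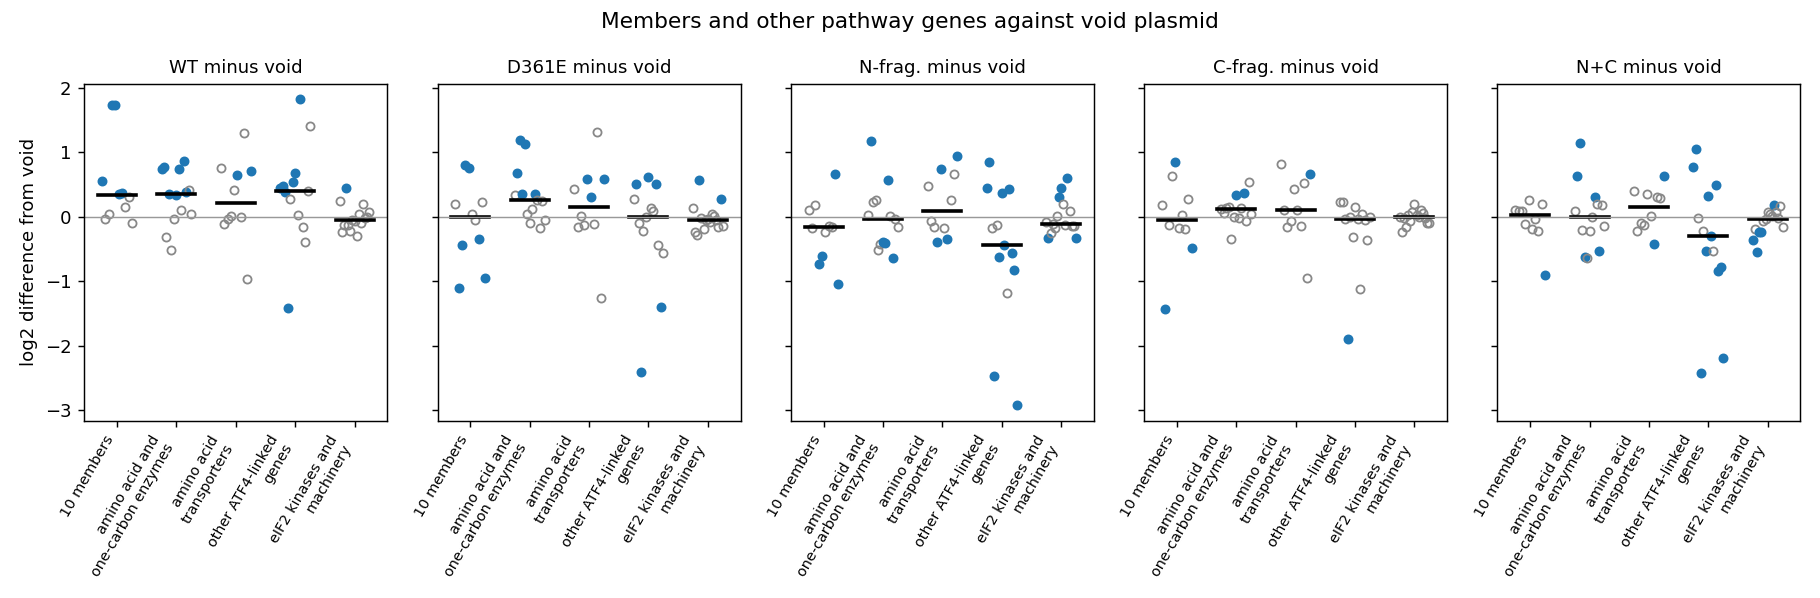
Log2 difference from void (vertical axis) for the 10 members and the 4 lists of other pathway genes (horizontal axis) in 5 comparisons, with 1 point per gene, filled where the gene was called, and the list median as a bar. The WT panel has 16 called list genes above 0 and 1 below, and the N-fragment panel has 11 above and 13 below; Vldlr is drawn at its measured signal although it was not well above background in the N-fragment and N+C groups.

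To see which other genes followed the set, each of 11417 named genes above background on all arrays was correlated with the mean of the members' standardised levels. The highest values over the 20 arrays were those of Fmc1 (Pearson r = 0.889), Mgarp (0.853), Nupr1 (0.852), Gpt2 (0.845) and Amz1 (0.817). These describe 20 arrays that share 6 groups and 5 slides, and Nupr1 and Gpt2 belong to the lists above. Among the members themselves, the correlation with that mean, which includes the gene, ran from 0.906 for Psat1 and 0.823 for Atf4 to 0.327 for Atf3 and 0.125 for Ppp1r15a, so that Atf3, Ddit3 (0.369) and Ppp1r15a followed the set least.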

How the data were processed

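Total RNA labelled with Cy3 was measured on 20 Agilent arrays, and the deposited intensity values are gProcessedSignal, which Feature Extraction 10.7.3.1 writes after background subtraction, per the submitters' processing notes and the file headers. The authors' deposited value table held the same intensity values (0 of 887940 differed). Here, outlier spots (98 to 285 an array) were set to missing, log2 intensity was taken relative to each array's 75th percentile, and spots of a probe were averaged. Probes above background on at least 3 arrays were kept, with the brightest probe per gene (18756 genes; 72.7% of probes have a symbol). A model with 6 groups was fitted to all 20 arrays with limma 3.58.1 in R 4.3.3, tested on simulated data, and p-values were adjusted (Benjamini-Hochberg) over all genes in each comparison. An adjusted p under 0.05 made a call. Replicates were numbered in accession order. The members and lists were chosen with earlier results of these data known. Named list genes came from the called gene with the largest rise and the largest fall of each list in each comparison with void or WT. Not all of these are given. Genes like the members were the 5 with the highest correlation. Alternatives covered scaling, background correction, filter, probe choice, groups fitted, slide, variance trend and left-out arrays. The normexp alternative (offset 50) used median foreground signals, since the mean signal planned for it is not among the columns used here. Saturation did not occur. The number of arrays limits the precision.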

Additional observations from a re-analysis of the deposited data

How the results depend on the processing

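Of 100 member differences, 52 were called, 32 of them in every setting run, and all 52 kept their direction in every setting. The count of members called moved by more than 1.5 times in 5 comparisons, and the cause was not tested. For N+C against void, 1 member was called in the fit reported, 2 with normexp background correction, 3 without scaling between arrays, 3 with slide as a block, 2 with N+C arrays 1 to 3 only, 4 with N+C arrays 4 and 5 only, and 1 to 2 when single arrays were left out. Over all 18756 genes, 2204 were higher and 2399 lower in the fit reported, 2149 and 1963 with normexp, and 4674 and 891 without scaling. With slide as a block these were 3113 and 3157, and with arrays 1 to 3 only 2926 and 3392. Arrays 4 and 5 only gave 2621 and 2679 of 18755, and single arrays left out gave 1711 to 2355 and 1740 to 2742. For WT against void, 9 were called without scaling. For the C-fragment against void, 5 were called when only these groups were fitted, beside 882 of all genes higher and 1679 lower. For D361E against WT, 4 were called when only these groups were fitted, and 4 to 8 when single arrays were left out. Of all genes 453 were higher and 323 lower in the first case, and 254 to 403 and 202 to 285 in the second. For D361E against void, leaving out single arrays gave 2 to 6, beside 771 to 977 of all genes higher and 946 to 1398 lower. Without scaling, 7426 of all genes were called higher and 254 lower for WT against void, where scaling gave 604 and 1155. The medians of all genes against void were then 0.12 (D361E), 0.28 (N-fragment), 0.22 (C-fragment) and 0.19 (N+C), with 2 members higher and 2 lower, 3 and 1, 3 and 1, and 2 and 1 in that order. In the same order, 1852 of all 18756 genes were higher and 556 lower, 6326 and 1123, 2862 and 513, and 4674 and 891. Against WT the medians were -0.24, -0.10, -0.15 and -0.19 in the same order. There 0 members were higher in any group, and 9, 7, 8 and 7 were lower. Over all genes, 130, 1556, 74 and 858 were higher and 1274, 2423, 862 and 3151 lower.

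The sign changed in 46 cases, 45 of them with a call on neither side. The exception was Atf3 for WT against void, at 0.36 log2 without scaling (adjusted p = 0.0464, limma). It was also at 0.10 with normexp, 0.060 with slide as a block, and -0.080 to 0.023 when single arrays were left out. The others without scaling were, against void, Asns 0.061 (C-fragment), 0.11 (N-fragment) and 0.018 (N+C), Atf3 0.17 (N-fragment), Chac1 0.096 (N+C), Ddit3 0.11 (C-fragment), Phgdh 0.053 (C-fragment) and 0.18 (N-fragment), Psat1 0.10 (D361E), 0.20 (N-fragment) and 0.19 (N+C), and Sesn2 0.31 (WT). Against WT, N+C gave Atf3 -0.061 and Ddit3 -0.13. For the N-fragment against the C-fragment, Asns gave 0.045 and Atf4 0.034. With normexp, Atf3 gave 0.00905 (N-fragment against void), Atf4 -0.014 (C-fragment against void) and 0.064 (fragments compared), Ddit3 -0.030 and Sesn2 0.036 (WT against void), and Psat1 0.00623 (D361E against void). With the mean of a gene's probes, Atf4 gave 0.034 (fragments compared) and Psat1 -0.082 (C-fragment against void). With slide as a block, Ddit3 gave -0.042 (N+C against WT) and Phgdh -0.071 (fragments compared). With N+C arrays 1 to 3 only, Atf4 gave -0.032 and Ddit3 -0.030 against void, and Ddit3 -0.068 against WT. With arrays 4 and 5 only, Chac1 gave 0.35 and Psat1 0.054 against void, and Ppp1r15a 0.11 against WT. When single arrays were left out, Asns ranged from -0.040 to 0.15 (D361E against void) and from -0.14 to 0.038 (fragments compared), Ddit3 from -0.021 to 0.14 (N+C against WT) and from -0.051 to 0.11 (WT against void), Phgdh from -0.052 to 0.089 (fragments compared), and Psat1 from -0.058 to 0.011 (N+C against void). No paired analysis was possible because the replicate numbers were given in accession order and pair no samples across groups.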
